A study of Mus musculus with 11 samples.

Results

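The sites described here are places in the genome of the mouse intestinal villus where the transcription factors CDX2 and HNF4A were both called in wild type and where HNF4A was no longer called when Cdx2 was deleted. Overlapping peaks of the 2 wild-type CDX2 libraries, sharing at least 1 bp, were merged, and 1584 merged sites held a peak of both libraries. Of these, 684 were overlapped by a wild-type HNF4A peak. At 450 of the 684 no HNF4A peak of the Cdx2 knockout touched the site, and these 450 are the HNF4A-lost sites. The need for a peak in both CDX2 libraries sets this number: with sites from library 2 alone there were 599, and without replicate 2, from library 1 alone, 2013. The other 234 shared sites, where HNF4A was called again, are the HNF4A-kept sites. The sites were thus chosen by their HNF4A calls in Cdx2 knockout and in wild type, and their HNF4A values are given as description only. "Lost" means not called above the authors' threshold, which is not the same as unbound.

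CDX2 is a homeodomain factor that specifies and maintains intestinal identity. HNF4A is a nuclear receptor active in differentiated enterocytes, the absorptive cells that line the villus. H3K4me2, the dimethylation of histone H3 at lysine 4, lies on nucleosomes of active promoters and enhancers, and at a bound enhancer marked nucleosomes typically flank the stretch that the factors occupy. Deleting one factor and mapping the other, together with the marked nucleosomes, asks which parts of such a site need which factor.

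Chromatin immunoprecipitation and sequencing was done on jejunal villus epithelium of mice on a mixed 129xC57BL6 background, and 10 of the 11 samples had a list used here. CDX2 was mapped in Hnf4a knockout (1 library) and in wild type (2 libraries), HNF4A in Cdx2 knockout and in wild type (1 library each). H3K4me2 was mapped in Cdx2 knockout, in Hnf4a knockout, in 2 double knockouts and in wild type, with 1 library each. The libraries were made from pooled immunoprecipitations, and the labels give neither the promoter that drove deletion, nor the age of the mice, nor whether both wild-type CDX2 libraries came from separate animals. The labels of the double knockouts contradict themselves. One carries Cdx2-Cdx1 in its title but Hnf4a, in place of Cdx1, in its other fields. The other carries Cdx2-Hnf4a in its title and Cdx1 in its description. Both are called by their titles, and nothing is drawn from the other deleted gene. All their labels name Cdx2, so 3 H3K4me2 lists lack Cdx2.

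The factor lists held 5768 CDX2 peaks in Hnf4a knockout, against 12121 and 7441 in the wild-type libraries, and 9676 HNF4A peaks in Cdx2 knockout against 22376 in wild type. The nucleosome lists held 262148 calls in Cdx2 knockout, 485509 in Hnf4a knockout, 292966 and 279224 in the libraries titled Cdx2-Cdx1 and Cdx2-Hnf4a, and 250986 in wild type. Read depth behind these lists is unknown. The Hnf4a knockout list went down to a nucleosome score of 1.7 while the others started at 50.1 or above, so its values are also given at a score of at least 52 in every list. Genes at the sites, markers of the tissue and the targeted genes themselves were not analysed here.

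Every knockout had 1 library, so no test across samples was possible. The 95% intervals given below cover counting error only, and not the variation between animals or libraries. In whole epithelium, fewer cells with a marked nucleosome and less mark per cell cannot be told apart. Where an effect at HNF4A-lost sites was set against that at HNF4A-kept sites, both came from the same pair of libraries.

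HNF4A-lost sites were the weaker part of the shared sites by HNF4A score. The deposited wild-type HNF4A score had a lowest value of 50.2, a median of 102 and a highest value of 614 at the 450 HNF4A-lost sites, against 51.2, 319 and 2233 at the 234 HNF4A-kept sites. The ranges overlapped widely, as the plot of both scores shows. Over all 22376 wild-type HNF4A peaks, 69.9% had no overlapping peak in Cdx2 knockout, against 65.8% of the 684 shared sites. Among shared sites, 119 of the 126 with an HNF4A score of 50 to 75 were lost, and 38 of the 162 with a score of 300 or more. These are 94.4% and 23.5%, against 90.2% and 12.3% of HNF4A peaks without CDX2 in the same bands. The share lost was higher at shared sites in all 5 bands of score. The units differ, however. Shared sites are merged CDX2 intervals scored by their strongest HNF4A peak, while the shares set against them count single HNF4A peaks. The comparison also rests on the calls that chose the sites, so it is description only.

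CDX2 scores did not separate the sites in the same way. In wild-type library 1 the median CDX2 score was 135 at HNF4A-lost sites, against 130 at HNF4A-kept sites. In library 2 it was 77.7 against 75.6. The quartiles of the mean of both libraries were 80.4 and 154 at HNF4A-lost sites, against 81.1 and 145 at HNF4A-kept sites. The merged CDX2 sites were 729 bp wide in the median at HNF4A-lost sites and 831 bp at HNF4A-kept sites. The HNF4A peak centre lay a median of 67.5 bp from the centre of the CDX2 peak of library 2 at HNF4A-lost sites, against 81 bp at HNF4A-kept sites.

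**Figure D1:**
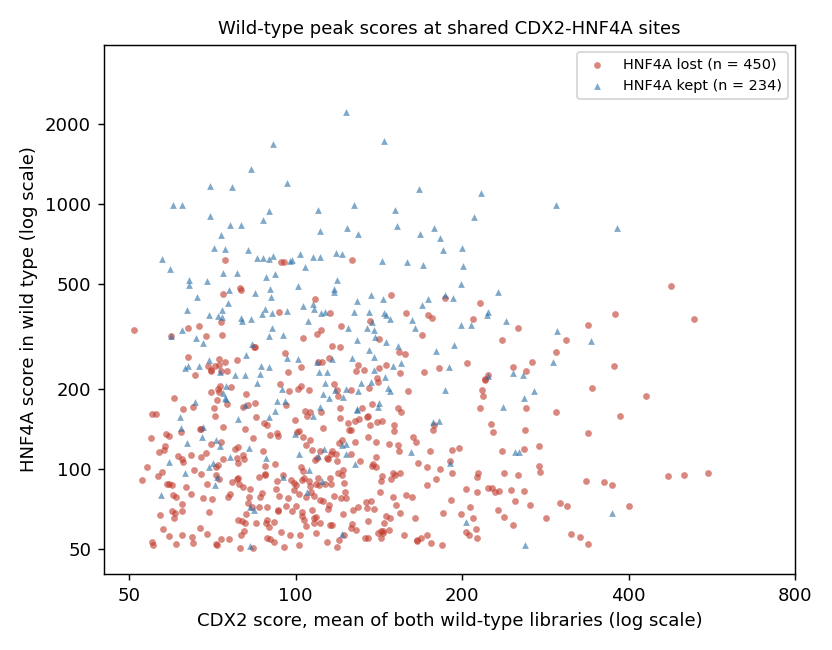
Each point is a shared site, with its mean wild-type CDX2 score on the x axis and its wild-type HNF4A score on the y axis, both on log scales. HNF4A-lost sites (circles) lie lower on the HNF4A axis, with a median of 102 against 319 for HNF4A-kept sites (triangles), and spread over the same CDX2 range.

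Several HNF4A-lost sites carried strong wild-type HNF4A peaks. The 5 with the highest HNF4A score outside chromosome 18 are given in coordinates of the mm9 build. The first, on chromosome 12 from 70612872 to 70613618, had an HNF4A score of 613.9 and CDX2 scores of 97.4 and 51.6 in the 2 wild-type libraries. CDX2 was not called there in Hnf4a knockout. H3K4me2 nucleosomes within 1 kb of its centre numbered 1 in Cdx2 knockout, 6 in Hnf4a knockout, 3 and 2 in the libraries titled Cdx2-Cdx1 and Cdx2-Hnf4a, and 4 in wild type. At a score of at least 52 there were 5 in Hnf4a knockout and 4 in wild type.

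The next, on chromosome 14 from 51768741 to 51769250, scored 613.8 for HNF4A, and CDX2 was called there at 76.4 in Hnf4a knockout, against 121 and 131 in wild type. It held 3 nucleosomes in Cdx2 knockout and 3 in wild type, but 0 in the library titled Cdx2-Hnf4a. The sites on chromosome 17 from 3251770 to 3252439 and on chromosome 4 from 139184946 to 139185559 scored 606.6 and 603.7. The first of this pair held 1 nucleosome in Cdx2 knockout and 3 in wild type, and the second 4 in Cdx2 knockout and 3 in wild type. A site on chromosome 8 from 118591080 to 118591952 combined an HNF4A score of 491.8 with CDX2 scores of 522 and 431, and it had 1 nucleosome in Cdx2 knockout against 4 in wild type. High HNF4A scores thus came with counts that were lower in Cdx2 knockout at some sites and equal or higher at others.

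The limit of the rule lay close by for a few sites. An HNF4A peak of the Cdx2 knockout lay 1 bp from the HNF4A-lost site on chromosome 11 from 35777421 to 35778417, and others lay 23 bp and 25 bp away from 2 further HNF4A-lost sites. On the other side, the HNF4A-kept sites with the smallest overlaps shared 10, 20 and 68 bp with a knockout peak. In all, 21 HNF4A-lost sites had a knockout HNF4A peak within 500 bp and 148 within 10 kb, and the median gap was 27759.5 bp.

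The sites were scattered over the genome, with 14 to 34 on each of the 19 autosomes and 4 on chromosome X. Of the 450, 59 lay within 50 kb of another HNF4A-lost site. The only chain of 3 or more with neighbours at most 50 kb apart lay on chromosome 16 from 91534529 to 91567075. Its 3 sites had wild-type HNF4A scores of 195.6, 382.3 and 188.1. Their nucleosome counts in Cdx2 knockout were 3, 1 and 2, against 4 at each in wild type. The last 2 of these sites lie so close that their windows share nucleosomes.

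In Hnf4a knockout, CDX2 was called at 176 of the 450 HNF4A-lost sites, or 39.1% (95% exact Clopper-Pearson interval 34.6 to 43.8). Over all 1584 CDX2 sites 39.2% were called again, so the share at HNF4A-lost sites was that of CDX2 sites in general. At HNF4A-kept sites 108 of 234 were called, or 46.2% (39.6 to 52.8), and at the 900 CDX2 sites without HNF4A 337 were, or 37.4% (34.3 to 40.7). The difference between HNF4A-lost and HNF4A-kept sites was -7.04 percentage points, with a Newcombe interval of -14.8 to 0.727 that includes 0. Against CDX2 sites without HNF4A the difference was 1.67 points (-3.78 to 7.20). The level depends on the sites taken: it was 12.8% without replicate 2 of the wild-type CDX2 libraries and 29.9% without replicate 1.

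Whether CDX2 was called again went with its wild-type score. At HNF4A-lost sites with a mean CDX2 score below 75, 11 of 90 were called in Hnf4a knockout, and at those with 150 or more, 85 of 120, or 70.8% (61.8 to 78.8). The corresponding share at HNF4A-kept sites with 150 or more was 77.4% (63.8 to 87.7), and below 75 it was 21.3% (10.7 to 35.7). At CDX2 sites without HNF4A it was 73.9% (66.3 to 80.6) with 150 or more and 16.2% (12.2 to 20.9) below 75. The rise with score was thus shared by all classes of CDX2 site. The 2 HNF4A-lost sites with the highest CDX2 score in Hnf4a knockout lay on chromosome 2 from 72302224 to 72303152 and on chromosome 16 from 91566282 to 91567075. CDX2 scored 297.0 on chromosome 2 in Hnf4a knockout, against 221 and 330 in wild type. On chromosome 16, in the chain above, it scored 285.0 in Hnf4a knockout, against 572.8 and 288.8 in wild type. The site with the highest mean CDX2 score in wild type, on chromosome 5 from 99439370 to 99440648, had 237 in Hnf4a knockout against 767 and 348 in wild type. The CDX2 lists all start at a score of about 50 but differ in length, and their read depth is unknown. These scores are therefore not a measure of changed binding.

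H3K4me2, which the choice of sites did not use, was lower at HNF4A-lost sites in every list lacking Cdx2. Within 1 kb of the site centre 2.50 ± 2.37 nucleosomes were called per HNF4A-lost site in Cdx2 knockout, against 3.50 ± 2.20 in wild type (SD over 450 sites). The median was 2 against 3. After scaling each list by the length of DNA it covers, the ratio of Cdx2 knockout to wild type was 0.669 (0.620 to 0.723, exact conditional binomial interval). At HNF4A-kept sites the counts were 4.50 ± 2.15 in Cdx2 knockout and 4.76 ± 2.07 in wild type (SD over 234 sites), a ratio of 0.887 (0.815 to 0.966). The ratio at HNF4A-lost sites was 0.755 times that at HNF4A-kept sites (0.673 to 0.846), and with an interval from the spread over sites 0.705 to 0.807.

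In Cdx2 knockout, the comparison with other classes placed HNF4A-lost sites beside CDX2 sites without HNF4A. The ratio of Cdx2 knockout to wild type was 0.688 (0.640 to 0.739) at the 900 CDX2 sites without HNF4A, and the HNF4A-lost sites had 0.973 times that value (0.877 to 1.08). At the 13248 HNF4A peaks that were lost in Cdx2 knockout but had no CDX2 peak in either wild-type library, the ratio was 0.845 (0.832 to 0.858). The HNF4A-lost sites had 0.793 times that value (0.733 to 0.857). Taken over all scores, loss of HNF4A calls where CDX2 was present in wild type thus went with a lower ratio than loss of HNF4A calls where it was not.

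The library titled Cdx2-Cdx1 had 2.94 ± 2.36 nucleosomes per HNF4A-lost site, a ratio to wild type of 0.719 (0.668 to 0.775), against 0.856 (0.787 to 0.931) at HNF4A-kept sites. The library titled Cdx2-Hnf4a had 2.02 ± 2.34, a ratio of 0.507 (0.467 to 0.551), against 0.709 (0.648 to 0.774) at HNF4A-kept sites. Relative to Cdx2 knockout, the library titled Cdx2-Hnf4a stood at 0.758 (0.693 to 0.828) at HNF4A-lost sites and at 0.799 (0.730 to 0.874) at HNF4A-kept sites. The ratio of these values was 0.948 (0.837 to 1.07), whose interval includes 1. The library titled Cdx2-Cdx1 stood at 1.07 (0.992 to 1.16) of Cdx2 knockout at HNF4A-lost sites. The label of the library titled Cdx2-Hnf4a names a different second antibody lot from the other H3K4me2 libraries, and the part of the lot in these values was not tested.

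In Hnf4a knockout the direction depended on the score floor. As deposited, its list held 5.56 ± 1.87 nucleosomes per HNF4A-lost site, against 3.50 ± 2.20 in wild type, and scaling by covered length turned this into a ratio of 0.845 (0.793 to 0.900). At a score of at least 52 in both lists the counts were 3.85 ± 2.15 in Hnf4a knockout and 3.43 ± 2.22 in wild type, a ratio of 1.12 (1.05 to 1.20). At the same floor the ratio was 1.06 (0.973 to 1.15) at HNF4A-kept sites, and the HNF4A-lost sites had 1.06 times that value (0.954 to 1.18). For Cdx2 knockout the floor left the ratio at HNF4A-lost sites at 0.671.

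**Figure D2:**
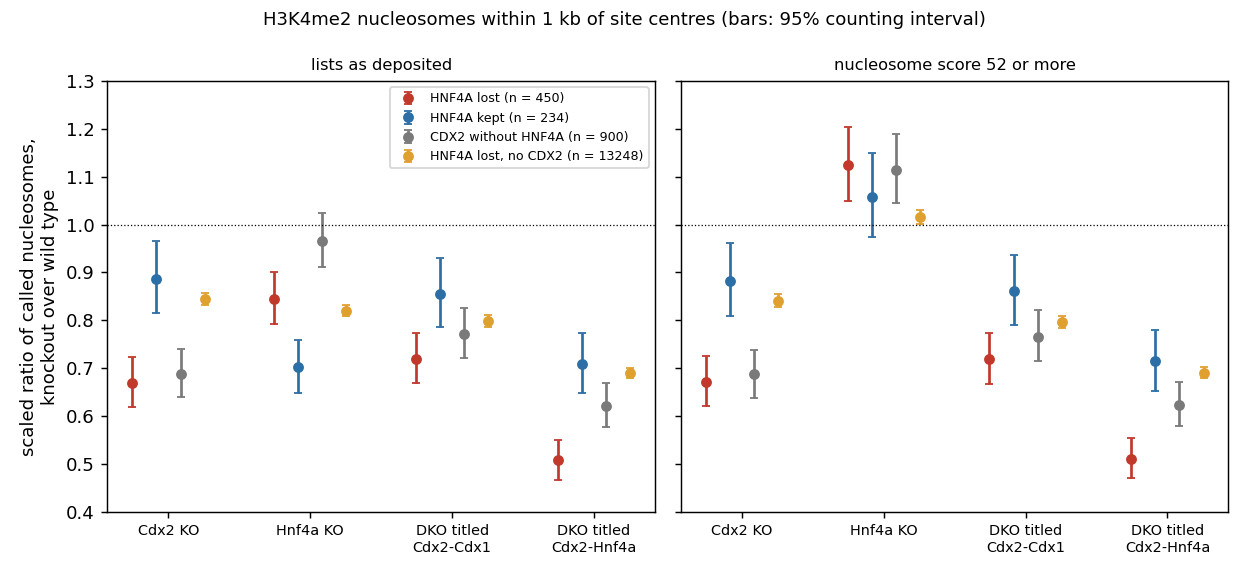
Points give the scaled ratio of H3K4me2 nucleosomes within 1 kb of site centres, knockout over wild type, for 4 classes of site and 4 knockout lists (DKO, double knockout), and bars give 95% counting intervals. At HNF4A-lost sites the ratio was 0.669 in Cdx2 knockout, 0.719 and 0.507 in the double knockouts, and in Hnf4a knockout 0.845 as deposited (left) and 1.12 at a score of at least 52 (right).

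A lower ratio than at HNF4A-kept sites was also found within bands of HNF4A score. In the 5 bands of wild-type HNF4A score from 50 upwards, the ratio of Cdx2 knockout to wild type at HNF4A-lost sites was 0.681, 0.697, 0.659, 0.661 and 0.620. The intervals of these bands overlapped. Bands with at least 20 HNF4A-kept sites started at a score of 100, and there HNF4A-kept sites had 0.884, 0.833 and 0.922. Set against HNF4A-kept sites of the same band, the ratio at HNF4A-lost sites was 0.746 (0.543 to 1.03), 0.794 (0.628 to 1.00) and 0.672 (0.510 to 0.886) times theirs. Each of the 3 values was below 1, and the interval lay clear of 1 in the band of 300 or more. Scores were not matched within bands: in that band they reached 614 at HNF4A-lost sites and 2233 at HNF4A-kept sites. At HNF4A peaks lost without CDX2, the ratio was 0.873 in the lowest band and 0.656 (0.575 to 0.748) in the highest, where it overlapped the 0.620 (0.477 to 0.802) of HNF4A-lost sites.

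**Figure D3:**
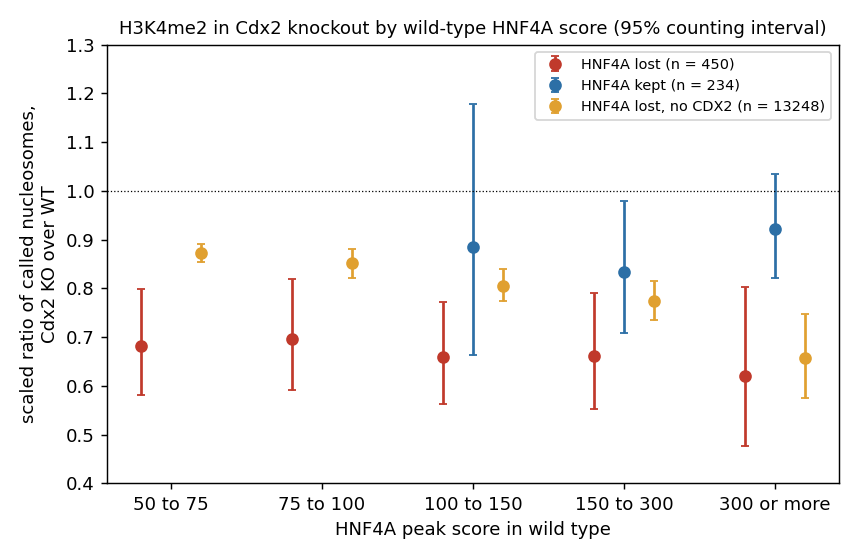
The x axis gives bands of wild-type HNF4A score and the y axis the scaled ratio of H3K4me2 nucleosomes in Cdx2 knockout over wild type, with 95% counting intervals. HNF4A-lost sites lie between 0.620 and 0.697 in all 5 bands, HNF4A-kept sites between 0.833 and 0.922 in the 3 bands with at least 20 of them.

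The same held when sites were divided by how many nucleosomes they had in wild type. At HNF4A-lost sites with 1 or 2 nucleosomes the ratio of Cdx2 knockout to wild type was 0.513, at those with 3 or 4 it was 0.604, and at those with 5 or more 0.739. HNF4A-kept sites had 0.920, 0.972 and 0.852 in these bands. Relative to HNF4A-kept sites the values were 0.557 (0.356 to 0.871), 0.621 (0.4997 to 0.772) and 0.867 (0.751 to 1.000). The gap between the classes was thus narrowest where wild type had most nucleosomes.

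Counted site by site, 279 HNF4A-lost sites had fewer nucleosomes in Cdx2 knockout than in wild type, 120 had the same number and 51 had more. Over all 20260 CDX2 sites and HNF4A peaks without CDX2, 32.6% had fewer and 19.5% more. Only 15001 of these 20260 had a nucleosome in wild type and so could have fewer. At HNF4A-lost sites 421 of the 450 had one, and at HNF4A-kept sites 232 of the 234, so this background is low for a comparison of falls. At HNF4A-kept sites 96 had fewer, 80 the same number and 58 more. Fewer nucleosomes than in wild type in each of the 3 lists lacking Cdx2 were found at 184 HNF4A-lost sites, or 40.9% (36.3 to 45.6), against 48 HNF4A-kept sites, or 20.5% (15.5 to 26.3). The background for this count, which likewise includes sites unmarked in wild type, was 19.5%. The difference between the classes was 20.4 points (13.2 to 26.9). More in each of the 3 were found at 23 HNF4A-lost sites, or 5.11%, and at 22 HNF4A-kept sites, or 9.40%, a difference of -4.29 points (-9.02 to -0.336). The background for it was 7.18%.

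Some HNF4A-lost sites had no marked nucleosome left. A nucleosome was called within 1 kb in wild type at 421 of the 450. Of these 421, 91 had none in Cdx2 knockout, or 21.6% (17.8 to 25.9), against a background of 10.2%. Among the 232 HNF4A-kept sites marked in wild type, 4 had none, or 1.72% (0.472 to 4.36), a difference of 19.9 points (15.4 to 24.2). The classes began unequal, as 143 of the 421 had only 1 or 2 nucleosomes in wild type, against 30 of the 232. The part of this in the difference, and in the further comparisons of empty sites below, was not tested. CDX2 sites without HNF4A had a higher share, 159 of 546 or 29.1%, and the difference of HNF4A-lost sites from them was -7.51 points (-12.9 to -1.95). In the opposite direction, 4 of the 29 HNF4A-lost sites unmarked in wild type held a nucleosome in Cdx2 knockout. The same was found at 1 of 2 unmarked HNF4A-kept sites and at 12 of 354 with CDX2 alone. Among unmarked HNF4A peaks lacking CDX2 it was found at 409 of 4526 where lost and 103 of 348 where kept. A nucleosome gained in this way was thus found in every class.

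In the libraries titled Cdx2-Cdx1 and Cdx2-Hnf4a, 60 and 157 of the 421 HNF4A-lost sites were unmarked, or 14.3% and 37.3%, against 2 and 17 of the 232 HNF4A-kept sites. The backgrounds were 9.51% and 20.7%. In Hnf4a knockout none of the 421 was unmarked as deposited, against a background of 0.42%. A count of 0 in 421 allows up to 0.872%. At a score of at least 52 it was 7 of the 416 then marked in wild type, or 1.68%. The background above does not apply at this floor. With it, 0 of the 232 HNF4A-kept sites and 3.69% of CDX2 sites without HNF4A were unmarked. HNF4A peaks without CDX2 had 5.59% where lost in Cdx2 knockout and 2.12% where kept. All 3 lists lacking Cdx2 were empty at 47 of the 421 HNF4A-lost sites, or 11.2% (8.32 to 14.6), against 0 of the 232 HNF4A-kept sites (upper limit 1.58%) and a background of 5.87%. At CDX2 sites without HNF4A it was again higher, 105 of 546 or 19.2% (16.0 to 22.8).

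The HNF4A-lost sites with most wild-type nucleosomes among those 47 show the pattern singly. The site on chromosome 7 from 89885061 to 89885513 had a wild-type HNF4A score of 161.6 and CDX2 scores of 53.2 and 56.7. It held 0 nucleosomes in Cdx2 knockout and in both double knockouts, 4 in Hnf4a knockout and 5 in wild type. The sites on chromosome 17 from 73716698 to 73717211 and on chromosome 6 from 52149677 to 52150427 also had 5 in wild type and 0 in each list lacking Cdx2, with 5 and 6 in Hnf4a knockout. At both, the wild-type HNF4A score was modest, 69.5 on chromosome 17 and 59.99 on chromosome 6. CDX2 was not called in Hnf4a knockout at any of these 3 sites, although H3K4me2 nucleosomes were. At a score of at least 52, Hnf4a knockout had 4, 4 and 6 nucleosomes at the sites on chromosomes 7, 17 and 6, against 5 at each in wild type.

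Large differences in number were also found at HNF4A-lost sites that kept a nucleosome in some list lacking Cdx2. Those on chromosome 5 from 53434497 to 53435756 and on chromosome 1 from 52312988 to 52313473 each had 1 nucleosome in Cdx2 knockout and 7 in wild type. Their wild-type HNF4A scores were 139.3 and 81.6, and CDX2 was called at neither in Hnf4a knockout. A site on chromosome 17 from 86684087 to 86684986 had 1 in Cdx2 knockout and 6 in wild type, with an HNF4A score of 67.8 and CDX2 scores of 67.8 and 53.3. On chromosome 17 from 24111861 to 24112621, a site with an HNF4A score of 275.5 had 0 in Cdx2 knockout, 3 in the library titled Cdx2-Cdx1, 0 in the library titled Cdx2-Hnf4a and 5 in wild type. The lists lacking Cdx2 thus differed at this site.

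A minority of HNF4A-lost sites had more marked nucleosomes without Cdx2. On chromosome 19 from 9057112 to 9057964, where HNF4A scored 94.9 in wild type, 7 nucleosomes were called in Cdx2 knockout, 8 in each double knockout, 5 in Hnf4a knockout and 4 in wild type. On chromosome 16 from 46848132 to 46848745 there were 7 in Cdx2 knockout, 7 and 6 in the double knockouts, 5 in Hnf4a knockout and 4 in wild type. On chromosome 7 from 50709214 to 50709858 there were 6 in each list lacking Cdx2, 5 in Hnf4a knockout and 3 in wild type. At a score of at least 52, Hnf4a knockout had 5, 4 and 3 at these sites in turn, against 4, 4 and 3 in wild type. At the sites on chromosomes 19 and 16 CDX2 was called in Hnf4a knockout, with scores of 50.6 and 60.5.

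Where the nucleosomes lay relative to HNF4A was examined in bands chosen after the profile had been seen. In wild type, nucleosome centres at HNF4A-lost sites peaked 150 to 200 bp from the HNF4A peak centre, with 32.0 per 100 sites in that 50 bp bin and 18.2 in the innermost. In Cdx2 knockout these bins were nearly equal, with 18.6 per 100 sites from 150 to 200 bp and 17.5 in the innermost, scaled to the wild-type list. Farther out its calls were sparser, with 587 from 300 bp to 1 kb against 351 in the narrower band from 100 to 300 bp. At HNF4A-kept sites the flanking peak was present in Cdx2 knockout, at 35.3 per 100 sites from 200 to 250 bp, against 45.7 in wild type.

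In numbers, the ratio of Cdx2 knockout to wild type at HNF4A-lost sites was 0.934 (0.755 to 1.15) for nucleosomes centred within 100 bp and 0.608 (0.530 to 0.697) for those at 100 to 300 bp. Centre over flank gave 1.54 (1.20 to 1.96). HNF4A-kept sites had 1.41 (1.05 to 1.92) within 100 bp and 0.906 (0.777 to 1.06) at the flanks, and centre over flank gave 1.56 (1.12 to 2.17). The centre-over-flank values of HNF4A-lost and HNF4A-kept sites lay within each other's intervals. The other classes were above 1 too, with 1.26 (1.01 to 1.56) at CDX2 sites without HNF4A. HNF4A peaks without CDX2 had 1.23 (1.17 to 1.29) where lost in Cdx2 knockout and 1.26 (1.18 to 1.35) where kept. At HNF4A-lost sites the number within 100 bp was 180 in Cdx2 knockout and 181 in wild type, while the flanks had 351 in Cdx2 knockout and 542 in wild type. Measured around the CDX2 site centre, centre over flank at HNF4A-lost sites was 1.20 (0.948 to 1.53), an interval that includes 1. Centre over flank at HNF4A-lost sites was 1.70 (1.35 to 2.15) in the library titled Cdx2-Cdx1 and 2.11 (1.64 to 2.73) in the library titled Cdx2-Hnf4a. In Hnf4a knockout as deposited the centre had 0.667 (0.546 to 0.816) and the flanks 0.638 (0.568 to 0.716), with 1.05 (0.834 to 1.31) for centre over flank. At a score of at least 52, a floor applied to these bands after seeing the data, Hnf4a knockout had 0.906 (0.728 to 1.13) at the centre and 1.03 (0.915 to 1.17) at the flanks, with 0.877 (0.687 to 1.12) for centre over flank.

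**Figure D4:**
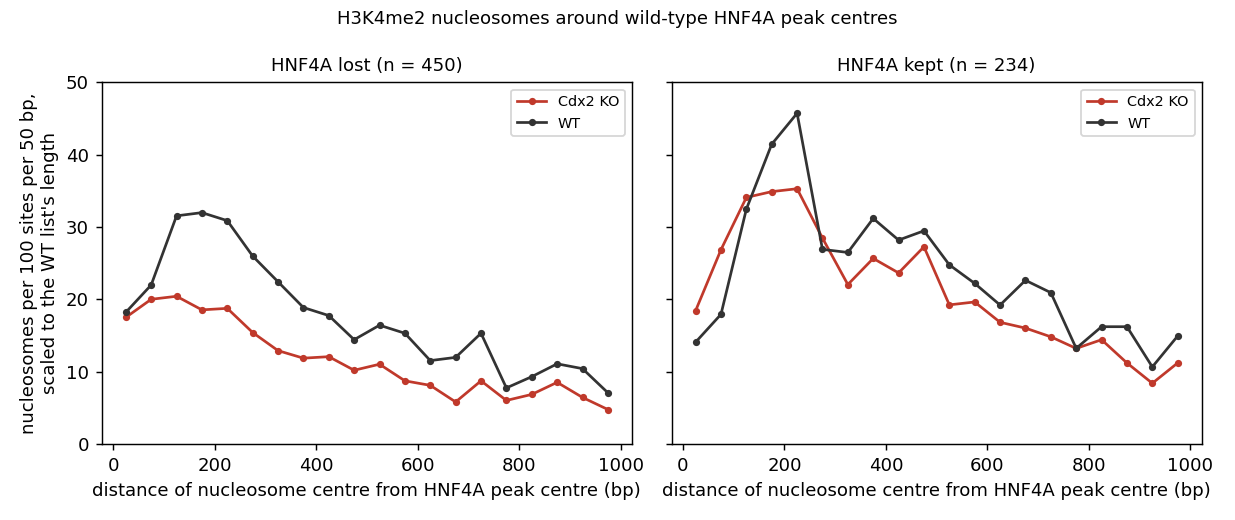
Lines give H3K4me2 nucleosomes per 100 sites in 50 bp bins of distance (x axis, bp) from the wild-type HNF4A peak centre, both sides together and scaled to the length of the wild-type list. At HNF4A-lost sites (left) the wild-type peak of 32.0 at 150 to 200 bp has no counterpart in Cdx2 knockout (18.6), while HNF4A-kept sites (right) have a flanking peak in both.

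A nucleosome centred within 75 bp of the HNF4A peak centre was called at 30.2% of HNF4A-lost sites in Cdx2 knockout (26.0 to 34.7) and at 28.7% in wild type (24.5 to 33.1). The order of this pair depended on the setting, with 30.7% in Cdx2 knockout and 36.9% in wild type around the CDX2 site centre, and 38.7% and 39.3% within 100 bp. At HNF4A-kept sites the shares within 75 bp were 32.5% in Cdx2 knockout and 23.1% in wild type. The library titled Cdx2-Cdx1 had 39.6% at HNF4A-lost sites and 40.2% at HNF4A-kept sites. In the library titled Cdx2-Hnf4a the classes parted, with 29.1% at HNF4A-lost sites and 42.7% at HNF4A-kept sites, a difference of -13.6 points (-21.2 to -6.07). In the same library, no nucleosome within 350 bp was called at 205 of the 450 HNF4A-lost and 25 of the 234 HNF4A-kept sites. The part of these empty sites in the difference was not tested. HNF4A peaks lacking CDX2 had a central nucleosome there at 22.2% where lost and 34.0% where kept. For CDX2 sites lacking HNF4A the share was 18.3%. Hnf4a knockout had 35.3% at HNF4A-lost sites as deposited and 23.1% at a score of at least 52.

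An arrangement modelled on a bound enhancer was defined as a nucleosome on each side within 350 bp and none within 75 bp of the centre. The definition was not planned beforehand. This arrangement was found at 80 HNF4A-lost sites in Cdx2 knockout, against 189 in wild type. These are 17.8% (14.4 to 21.6) and 42.0% (37.4 to 46.7). No nucleosome within 350 bp was called at 140 HNF4A-lost sites in Cdx2 knockout, against 37 in wild type. HNF4A-kept sites had the flanked arrangement at 110 of 234 in Cdx2 knockout and at 129 in wild type. It was rarer in Cdx2 knockout in the other classes too. CDX2 sites without HNF4A had it at 10.3% against 18.6% in wild type. HNF4A peaks without CDX2 had it at 16.5% against 22.6% where lost in Cdx2 knockout, and at 40.8% against 46.8% where kept. No nucleosome within 350 bp was called at 60.3% of CDX2 sites without HNF4A in Cdx2 knockout, against 43.2% in wild type. The library titled Cdx2-Cdx1 had the flanked arrangement at 92 HNF4A-lost sites and the library titled Cdx2-Hnf4a at 48.

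Of the 189 HNF4A-lost sites flanked on both sides in wild type, 67 had the same arrangement in Cdx2 knockout, or 35.4% (28.6 to 42.7). Another 42 had a nucleosome on 1 side only, 40 had one at the centre and 40 had none within 350 bp. Of the 129 HNF4A-kept sites that began with it, 91 had the arrangement in Cdx2 knockout, or 70.5% (61.9 to 78.2), and 3 had none within 350 bp. CDX2 sites without HNF4A had the arrangement at 75 of 167, or 44.9% (37.2 to 52.8), and none within 350 bp at 21.0%. At HNF4A peaks lost without CDX2, 57.3% had the arrangement in Cdx2 knockout. Between HNF4A-lost and HNF4A-kept sites, the difference in sites with the same arrangement was -35.1 points (-44.8 to -24.2). For sites with a nucleosome at the centre the difference was 4.11 points (-4.96 to 12.5), which includes 0. It was 18.8 points (12.1 to 25.4) for sites with none within 350 bp and 12.1 points (3.81 to 19.8) for sites with 1 flank.

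**Figure D5:**
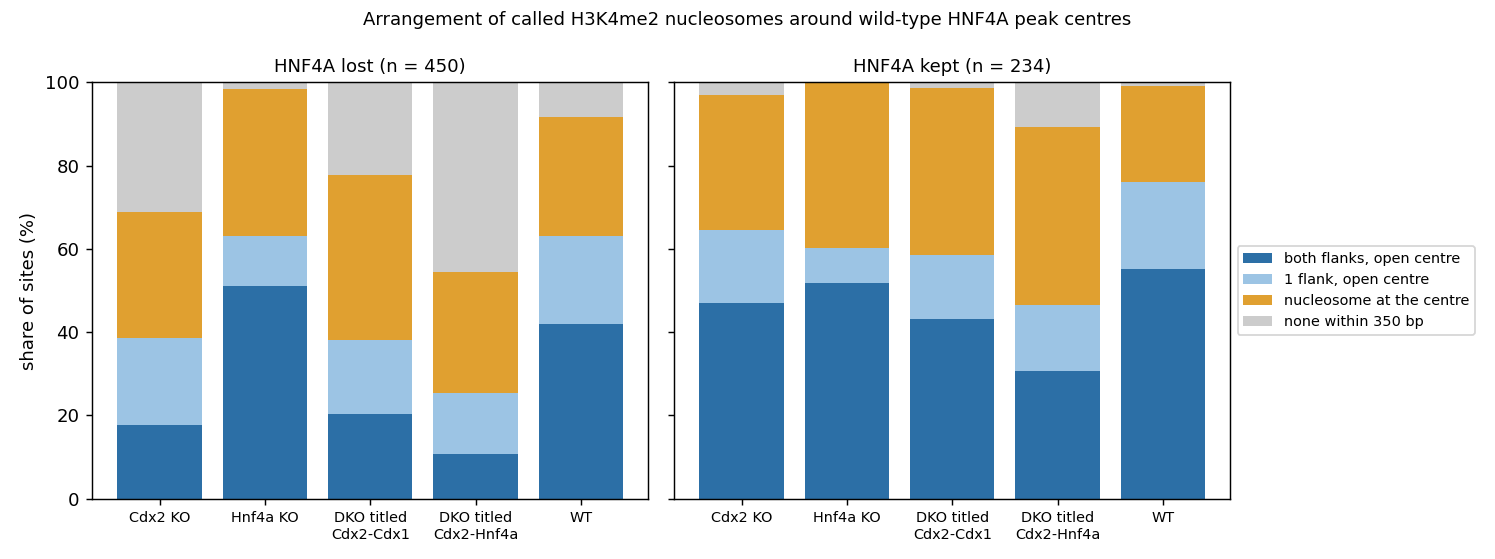
Bars give the share of sites (y axis, %) by the arrangement of called H3K4me2 nucleosomes around the wild-type HNF4A peak centre in each of the 5 lists, for HNF4A-lost sites (left) and HNF4A-kept sites (right). At HNF4A-lost sites both flanks with an open centre made up 17.8% in Cdx2 knockout and 42.0% in wild type.

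The HNF4A-lost sites were also divided by their CDX2 calls and by nearby HNF4A. The ratio of Cdx2 knockout to wild type was 0.713 (0.630 to 0.806) at the 176 where CDX2 was called in Hnf4a knockout and 0.642 (0.581 to 0.710) at the other 274. It was 0.657 (0.590 to 0.732) at the 225 with the higher mean CDX2 scores and 0.682 (0.611 to 0.762) at the 225 with the lower. The intervals overlapped within both of these pairs. A last division, by the distance to the nearest HNF4A peak of the Cdx2 knockout, uses the list that chose the sites. It gave 0.760 (0.674 to 0.857) at the 148 with such a peak within 10 kb and 0.611 (0.552 to 0.677) at the 302 without one. These groups began unequal, with 4.16 and 3.18 nucleosomes per site in wild type. The part of this in the difference was not tested.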

How the data were processed

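ChIP-seq lists of 5 factor libraries and 5 H3K4me2 libraries from mouse jejunal villi were used as the authors deposited them. Input DNA was not analysed here. Per the labels' protocols, villi were released with 15 mM EDTA and retained on a 70 µm filter, and libraries were made from 10 to 20 ng of pooled DNA. Villi for some preparations were treated with micrococcal nuclease unfixed, without the libraries being named. The build is mm9, per the submitters' processing notes. Factor lists give a deposited score per peak, with none below 50. Peak names carry the word MACS, and what the score stands for is not given in the sources used here. For nucleosomes the deposited score is 10 times the −log10 of a p-value, per the file headers, with a ceiling of 3250. For the caller, control and aligner nothing is given in these sources.

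Sites, overlaps and nucleosome centres within 1 kb were counted with Python 3.11.15, NumPy 2.4.6 and SciPy 1.17.1. Ratios were scaled by the DNA length each list covers. Intervals were Clopper-Pearson for shares, Newcombe for their differences, conditional binomial for ratios and log-normal for ratios of ratios. Procedures were tested on simulated data. Sites were named by rank (wild-type HNF4A or CDX2 score, CDX2 score in Hnf4a knockout, largest fall or rise among sites with at least the median of 3 wild-type nucleosomes, emptiness without Cdx2), leaving out chromosome 18, and the first of each rank are printed. The sites, classes and rules were chosen with earlier results of these data known. No genome of the files' build was used, so sequences, motifs and genes were not analysed here.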

Additional observations from a re-analysis of the deposited data

How the results depend on the processing

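No paired analysis was possible because the groups compared share fewer than 2 replicate numbers. The number of HNF4A-lost sites, 450, was 299 at a factor score of at least 60, 154 at 80 and 262 with the wild-type HNF4A list trimmed to the knockout's length, each of which takes fewer peaks. With 1 wild-type CDX2 library it was 599 to 2013. The lower value was without replicate 1 and the higher without replicate 2. CDX2 called in Hnf4a knockout was 12.8% to 29.9% with 1 CDX2 library, the lower without replicate 2.

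The ratios of Cdx2 knockout to wild type (0.634 to 0.717) and to HNF4A-kept sites (0.709 to 0.826) stayed below 1 in all 10 alternatives. The share without a nucleosome was 31.3% at a nucleosome score of at least 100, and 17.1% to 19.9% with 1 CDX2 library. In Hnf4a knockout the ratio reversed to 1.12 at a score of 52, to 1.11 at 100 and to 1.59 without scaling. It was 0.707 in a 500 bp window, 0.956 in a 2 kb window and 0.785 to 0.849 with 1 CDX2 library. Without scaling the library titled Cdx2-Cdx1 had 0.838 and that titled Cdx2-Hnf4a 0.576. The library titled Cdx2-Hnf4a had 0.454 with the trimmed list and 0.526 to 0.567 with 1 CDX2 library.

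Within 100 bp in place of 75 bp, which takes more nucleosomes, a central one was called at 38.7% of sites in Cdx2 knockout, 49.1% in Hnf4a knockout, 47.6% and 37.1% in the libraries titled Cdx2-Cdx1 and Cdx2-Hnf4a, and 39.3% in wild type. Around the CDX2 site centre the share was 30.7% in Cdx2 knockout, 41.6% in Hnf4a knockout and 36.9% in wild type, which turns the order of Cdx2 knockout and wild type, and at a score of 52 it was 23.1% in Hnf4a knockout. Alternatives chosen after seeing the data bore on the arrangement. Around the CDX2 site centre, both flanks with an open centre made up 34.9% in wild type and centre over flank was 1.20 (0.948 to 1.53). With 1 CDX2 library the arrangement made up 16.9% to 23.1% in Cdx2 knockout. The cause of these changes was not tested beyond what the settings themselves take. Motif and gene alternatives were not run.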
